A study of Canis lupus familiaris with 4 samples.

Results

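ZNRF3 and 8 other genes of the Wnt feedback circuit, RNF43, AXIN2, LEF1, TCF7, TCF7L2, CTNNB1, DKK1 and NKD1, were followed over 4 Affymetrix arrays of MDCKII cells. MDCKII is an established epithelial line from dog kidney. Each probe set whose only gene symbol in the platform annotation is one of these names was taken, which gave 19 of 42924 probe sets and 9 of 15115 genes. The set was drawn up with results of these arrays known. ZNRF3 was chosen by its measured difference between KD and WT cells in normoxia, so its values for KD against WT are given as a description.

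The labels give 1 array to each combination of genotype (WT or KD) and oxygen (normoxia or hypoxia), so no group has a replicate. WT stands for cells with unaltered HIF1A and KD for cells with HIF1A knocked down. HIF1A encodes a subunit of the transcription factor that answers to low oxygen. All cells spent 24 h in normoxia and then another 24 h in normoxia or hypoxia, and 100 ng of total RNA went into each labelled cRNA. The sources used here do not give the method of knockdown, the number of clones or the oxygen level. The series compares the response to hypoxia with and without HIF1A.

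HIF1A did not follow the label of the knockdown. Its brightest probe set read 3651 in WT normoxia, 3435 in KD normoxia, 675 in WT hypoxia and 625 in KD hypoxia. Its log2 differences for KD minus WT were -0.09 and -0.11, against -2.41 and -2.43 for hypoxia minus normoxia. HIF1A thus separated the arrays by the oxygen label and not by the genotype label. Whether the labels of KD normoxia and WT hypoxia were exchanged was not tested. If they were, the hypoxia and genotype terms would trade places, and directions below are those of the labels as given. Of 11 epithelial markers with a probe set, 9 reached the detection floor explained below, with EPCAM at 9356 to 11319. CDH1, the E-cadherin that binds beta-catenin at cell contacts, read 17.8 to 41.2 in its 1 probe set and stayed below that floor in every array. PAX8, also with 1 probe set, did so at 4.54 to 9.43. Low readings from 1 probe set do not show that either gene is off. Of 11 measured markers of leukocytes, endothelium, fibroblasts and podocytes, 4 reached the floor in at least 1 array. The endothelial CDH5 read 104 to 178. PTPRC and CD14, both of leukocytes, read 44.03 to 69.26 and 37.91 to 69.75, and ACTA2 read 29.55 to 51.68. The other endothelial markers of the list, PECAM1 and VWF, stayed below it in every array, at 9.56 to 17.7 and 1.17 to 27.5. COL1A1 read 4.05 to 10.8. Whether other cells contributed was not tested. The 4 arrays correlated pairwise with r from 0.982 to 0.987 across probe sets, their median intensities were 45.6 to 47.1, and their number limits the precision.

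In the canonical Wnt pathway a secreted Wnt protein binds a Frizzled receptor and its partner LRP5 or LRP6. This stops the complex built on AXIN and APC from marking beta-catenin for destruction. Beta-catenin, encoded by CTNNB1, then joins factors of the TCF and LEF family on DNA. Several of the genes turned on in this way dampen the pathway again. ZNRF3 and RNF43 are membrane ubiquitin ligases that remove Frizzled receptors from the cell surface, and R-spondins acting with LGR receptors remove these ligases in turn. AXIN2 rebuilds the destruction complex, NKD1 binds Dishevelled, and DKK1 is a secreted inhibitor that binds LRP coreceptors. In kidney epithelium the pathway is known for its part in tubule formation and in the response to injury.

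ZNRF3 was lower in both arrays labelled KD than in both labelled WT. Its single probe set read 184 in WT normoxia, 64.9 in KD normoxia, 206 in WT hypoxia and 92.5 in KD hypoxia. All 4 values lay above the floor, an intensity of 46.3 that is the median of all values, and the KD and WT arrays did not overlap. On the scale of log2(intensity + 16), which is used for all differences and understates those of dim genes, the KD array differed from the WT array by -1.31 in normoxia and by -1.03 in hypoxia. These are 2.47-fold and 2.05-fold differences. The hypoxia pair shares no array with the pair on which ZNRF3 was chosen. It compares the same labelled genotypes, however, so it is not an independent check of a difference between the WT and KD cells. There the 2-fold mark is met narrowly, since the difference was -0.997 after quantile normalization and -0.993 after cyclic loess.

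The order of the ZNRF3 levels from high to low was WT hypoxia, WT normoxia, KD hypoxia and KD normoxia. The difference of hypoxia from normoxia was 0.15 with WT and 0.42 with KD cells, so both arrays labelled hypoxia were the higher of their pair. With no replicates, the one estimate of spread is the prior SD that limma takes from how alike the paired differences of equally bright genes were. For a difference of 2 arrays at the brightness of ZNRF3 it was 0.20, so the WT pair are neighbours that do not differ beyond it. Over both genotypes the limma term for hypoxia was 0.29 (SE 0.14, adjusted p = 0.257, range over 9 alternatives 0.19 to 0.449) and did not pass. Both arrays of the contrast that chose ZNRF3 enter this term, where a low KD and a high WT value act in opposite directions. The responses of 0.15 and 0.42 each hold 1 of those arrays. The difference of the responses, WT minus KD, was -0.27, within its prior SD of 0.281. This difference equals KD minus WT in normoxia less KD minus WT in hypoxia. It thus holds the contrast that chose ZNRF3, and nothing is read from it.

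Among 9834 genes that reached the floor in at least 1 array, ZNRF3 ranked 11th from the lowest for KD minus WT in normoxia and 30th in hypoxia. It was 1 of 7 genes, or 0.0712%, that were at least 2-fold lower in both pairs. The others, named here after their values were seen, were ARHGEF38, GCLC, MT1E, NFKBIE, RFTN1 and UGT1A6. Since the normoxia contrast chose ZNRF3, nothing is read from its rank there or from its place among the 7. ZNRF3 has no second probe set on this array, so its pattern rests on 1 set of probes.

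**Figure D1:**
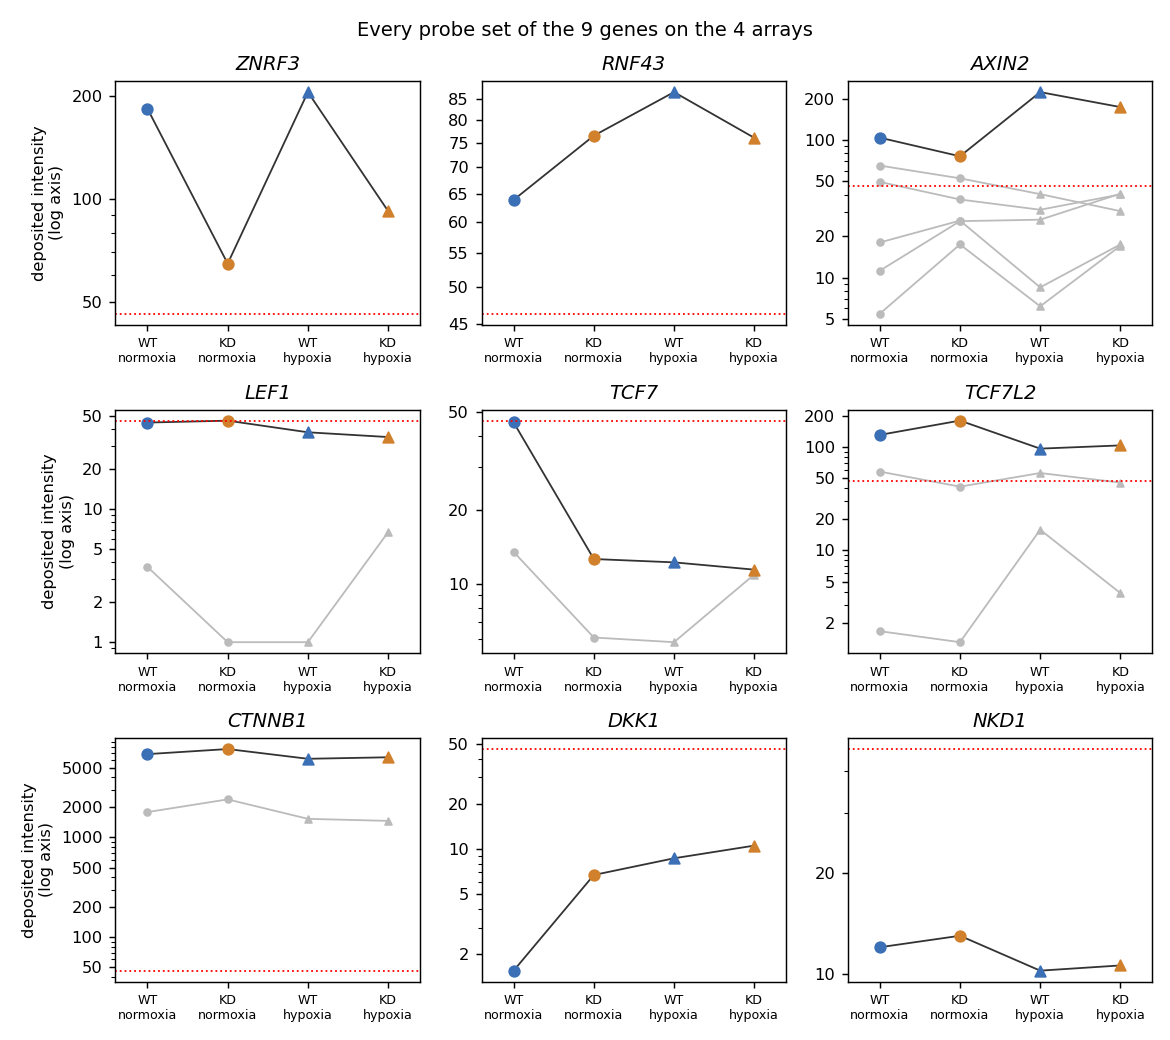
Deposited intensity (log axis, its range differs between panels) of all 19 probe sets of the 9 genes on the arrays labelled WT (blue) and KD (orange) in normoxia (circles) and hypoxia (triangles). The brightest probe set of each gene is coloured, others are grey, lines join the values of 1 probe set, and the dotted line is the floor of 46.3. ZNRF3 is lower in both KD arrays, while LEF1, TCF7, DKK1 and NKD1 stay below the floor.

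RNF43, the closest relative of ZNRF3 in function, did not share its pattern. Its probe set read 63.9 in WT normoxia, 76.6 in KD normoxia, 86.6 in WT hypoxia and 76.1 in KD hypoxia. The KD arrays lay between the 2 WT arrays. The KD array differed from WT by 0.21 in normoxia and by -0.16 in hypoxia, and the response to hypoxia was 0.36 for WT and -0.01 for KD cells. The prior SD of such a difference at this brightness was 0.25, so of these 4 values the WT response alone exceeded it. Neither limma term passed, at 0.18 (SE 0.18, adjusted p = 0.603) for hypoxia and 0.03 (SE 0.18, adjusted p = 0.946) for genotype.

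AXIN2, a scaffold of the destruction complex and a widely used readout of the pathway, has 6 probe sets that did not move together. The brightest read 104 in WT normoxia, 76.2 in KD normoxia, 223 in WT hypoxia and 174 in KD hypoxia. Both hypoxia arrays lay above both normoxia arrays, with differences of 0.99 in WT and 1.04 in KD cells. In limma this probe set rose with hypoxia by 1.02 (SE 0.13, adjusted p = 0.00162, range over 8 alternatives 4.57e-10 to 0.109). It was lower in the KD array of each pair, by -0.38 and -0.33, and its genotype term of -0.36 did not pass (adjusted p = 0.145).

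The next brightest AXIN2 probe set ran the other way with oxygen. It read 65.2 in WT normoxia and 52.7 in KD normoxia, and 40.5 in WT hypoxia and 30.4 in KD hypoxia, both of them below the floor. Another AXIN2 probe set reached the floor in WT normoxia alone, at 49.7, and read 31.2 to 40.3 elsewhere. The remaining 3 read 5.47 to 40.7 and never reached it. With the median of the 6 probe sets taken in each array first, the 2 hypoxia arrays differed from normoxia by -0.08 for WT and by 0.12 for KD cells. No single direction for AXIN2 mRNA can be read from these arrays.

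**Figure D2:**
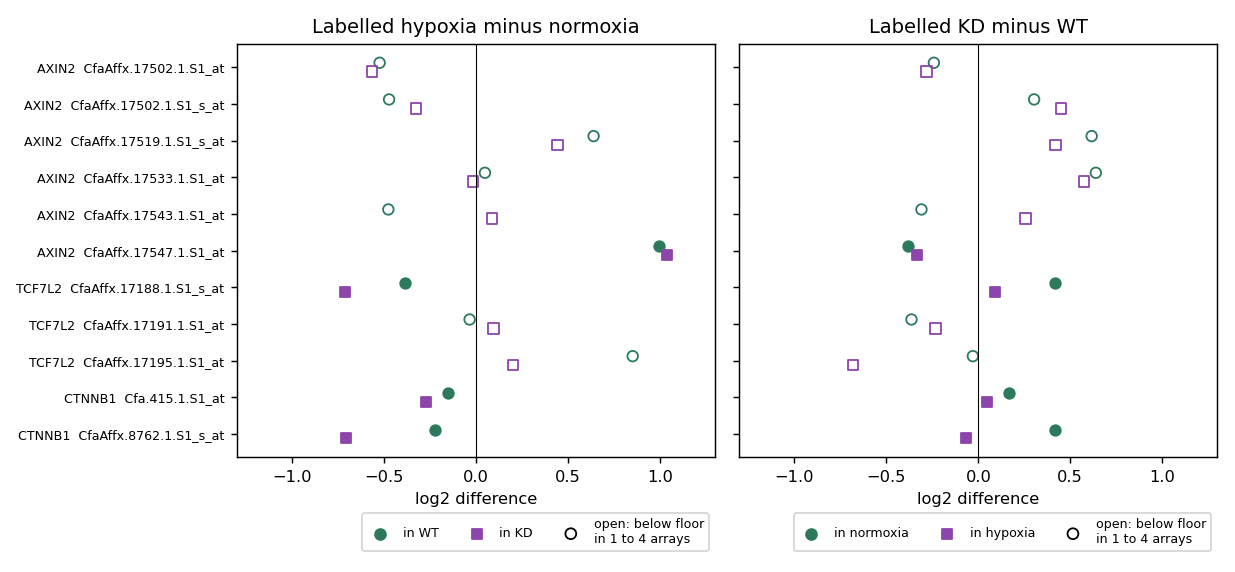
Log2 difference (x axis) of each probe set (rows) of AXIN2, TCF7L2 and CTNNB1, for hypoxia minus normoxia in WT and KD cells (left) and for KD minus WT in normoxia and hypoxia (right). Each point is a difference of 2 arrays, and open symbols mark probe sets below the floor in 1 or more arrays. The brightest AXIN2 probe set stands at 0.99 and 1.04 on the left while another AXIN2 probe set lies at -0.52 and -0.57.

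CTNNB1, the transducer of the pathway and a component of adherens junctions, was lower in both arrays labelled hypoxia. Its brightest probe set read 6840 in WT normoxia, 7689 in KD normoxia, 6142 in WT hypoxia and 6358 in KD hypoxia. The second probe set read 1797, 2408, 1537 and 1466 in that order. The oxygen groups did not overlap in either probe set. In limma CTNNB1 fell with hypoxia by 0.21 (SE 0.05, adjusted p = 0.0394, range over 10 alternatives 0.00181 to 0.329). The first probe set differed with hypoxia by -0.16 in WT and by -0.27 in KD cells, the second by -0.22 and -0.71. For KD minus WT the first probe set was at 0.17 in normoxia and 0.05 in hypoxia and the second at 0.42 and -0.07, and the genotype term did not pass (adjusted p = 0.273).

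TCF7L2, the TCF factor that was above the floor here, was also lower with hypoxia in its brightest probe set. That probe set read 131 in WT normoxia, 180 in KD normoxia, 96.2 in WT hypoxia and 103 in KD hypoxia, with no overlap between the oxygen groups. In limma it fell with hypoxia by 0.55 (SE 0.14, adjusted p = 0.0463, range over 9 alternatives 0.00318 to 0.96). The next probe set read 57.7, 41.3, 55.9 and 45.2, again in that order. That probe set differed by -0.04 and 0.09 with hypoxia, and the call was lost when the median over probe sets was used. The remaining probe set read at most 15.9 and stayed below the floor. The KD array differed from WT by 0.42 in normoxia and by 0.09 in hypoxia in the brightest probe set and -0.36 and -0.23 in the second, and the genotype term did not pass (adjusted p = 0.343).

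The other 4 genes never reached the floor, and no difference is given for them. LEF1, a factor of the same family that is itself a Wnt target, came closest, at 44.8, 46.26, 37.8 and 34.8 (normoxia WT and KD, then hypoxia WT and KD), just outside the floor of 46.33. Its other probe set was listed at 1 in 2 arrays and read at most 6.71. Just inside the floor among the 9 genes was RNF43, with a highest value of 86.6. TCF7, a further TCF factor, read 45.5 in WT normoxia and 11.5 to 12.7 in the other arrays. DKK1 read 1.55 to 10.5 and NKD1 10.3 to 13.0. For both of these secreted or cytoplasmic inhibitors the arrays give a bound and no level.

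Of the 5 genes that reached the floor, 1 was at least 2-fold lower in KD than in WT cells in normoxia, ZNRF3, and 0 were higher. Over all genes above the floor 0.325% were lower and 0.854% higher by that much, and since this contrast chose ZNRF3 nothing is read from the count. In the hypoxia pair ZNRF3 was again the 1 gene past the mark, downwards (background 0.356% lower and 0.519% higher). Hypoxia minus normoxia put 0 of 5 past 2-fold in WT cells (background 0.6% higher and 0.569% lower). In KD cells it put 1 past, the brightest AXIN2 probe set, upwards (background 0.559% higher and 0.997% lower). For KD minus WT the 5 genes had a median of 0.17 in the normoxia pair and -0.16 in the hypoxia pair, beside -0.01 in both pairs over all genes.

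In the limma hypoxia term 1 of the 5 genes rose (AXIN2, by its brightest probe set), where 4.72% of all genes did. In that term 2 fell (CTNNB1 and TCF7L2), where 4.17% did. With the median over probe sets CTNNB1 alone was still called, so no direction is read from the calls of AXIN2 and TCF7L2. In the genotype term 0 of the 4 genes other than ZNRF3 rose or fell, beside 2.94% and 2.43% of all genes. Both KD arrays lay below both WT arrays for 1 of the 5 genes (ZNRF3, background 22.2%) and above them for 0 (background 19%). The contrast that chose ZNRF3 is part of this ordering, so nothing is read from its place there. Both hypoxia arrays lay below both normoxia arrays for 2 (CTNNB1 and TCF7L2, background 19.3%) and above them for 1 (AXIN2, background 22.8%). All limma calls of these genes ended without the intensity trend of the prior or without the floor.

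**Figure D3:**
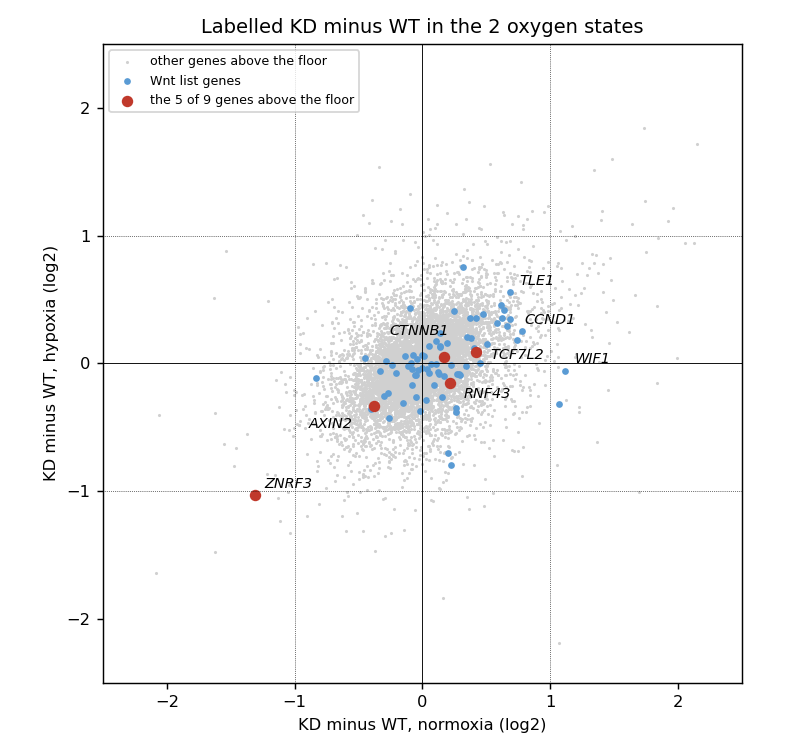
Log2 difference KD minus WT in normoxia (x axis) against hypoxia (y axis) for genes above the floor (grey, of which 3 lie outside the axes), Wnt list genes (blue) and the 5 of the 9 genes that reached the floor (red). Dotted lines mark 2-fold. ZNRF3 lies at -1.31 and -1.03, and RNF43, AXIN2, TCF7L2 and CTNNB1 lie within 2-fold on both axes.

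The genes whose pattern lay nearest to that of ZNRF3 were sought among 8037 others above the floor in all 4 arrays. Genes with placeholder symbols (LOC) were left out. Likeness was the root mean square distance between centred log2 values over the 4 arrays, a description with no test. The nearest was VAMP2, a SNARE protein of vesicle fusion, at a distance of 0.07, with 237 in WT normoxia, 92.7 in KD normoxia, 265 in WT hypoxia and 138 in KD hypoxia. NQO1, a quinone reductase, followed at 0.08, with 6025, 2703, 6496 and 3541 in the same order. UGT1A6, a glucuronosyltransferase, stood at 0.09, with 644, 286, 844 and 398. CCDC32 and NOB1, an endonuclease of ribosome maturation, both stood at 0.18.

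These 5 genes differ in how far their other probe sets repeat the pattern. For KD minus WT, the 2 further NQO1 probe sets were at -1.12 and -0.76 in normoxia and at -0.87 and -0.47 in hypoxia. The NQO1 probe set at -0.76 and -0.47 read 36.53 in KD normoxia, below the floor, so no repeat is read from it. The second VAMP2 probe set was at -0.50 and -0.68. One further UGT1A6 probe set was at -0.56 and -0.68 and another at 0.16 and -0.12. The former read 35.1 and 38.15 in the KD arrays, below the floor, so no repeat is read from it either. The second CCDC32 probe set was at 0.05 and 0.12, against -1.37 and -0.55 in the brightest. NOB1, like ZNRF3, has 1 probe set, with KD minus WT at -0.91 and -0.71.

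The rest of the pathway was read from 10 gene lists with 152 genes, of which 138 had a probe set and 73 reached the floor. In the limma hypoxia term 5 of the 73 rose and 4 fell, and in the genotype term 5 rose and 2 fell. These counts, and those of each list that follow, stand beside 4.72% and 4.17% of all genes for hypoxia and 2.94% and 2.43% for genotype. One of the 4 falls, that of BAMBI, is of a gene that reached the floor only in the arrays where it is high. The median of KD minus WT over the 73 genes was 0.13 in normoxia and -0.01 in hypoxia, beside -0.01 and -0.01 over all genes. Without the trend of the prior limma called 0 of them in either term (17 and 18 with an unadjusted p under 0.05), and without the floor it called 0 of the 138 genes then tested (16 and 23).

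Among Wnt ligands and the genes that release them, 5 of 19 measured genes reached the floor, 1 rose with hypoxia and 0 passed for genotype. The gene that rose was WLS, which carries Wnt proteins to the cell surface, with 4318 in WT normoxia, 5056 in KD normoxia, 5860 in WT hypoxia and 5815 in KD hypoxia. Its term was 0.32 (SE 0.07, adjusted p = 0.0189). All 4 WLS probe sets were higher with hypoxia in WT cells, and 3 of the 4 were in KD cells, and the call was lost with the median over them. The ligand WNT7A read 93.9, 149, 80.2 and 104 in the same order and did not pass, nor did the ligand WNT3, at 127 to 165.

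Frizzled and LRP receptors, which include the targets of ZNRF3, had 9 of 15 measured genes above the floor. FZD6 fell in the genotype term by 0.25 (SE 0.06, adjusted p = 0.0449). It read 4279 in WT normoxia, 3548 in KD normoxia, 4431 in WT hypoxia and 3775 in KD hypoxia. Both KD arrays thus lay below both WT arrays, as they did for 22.2% of all genes above the floor. A second FZD6 probe set differed by -0.63 and -0.52. The genotype call of FZD6 was lost after median centring. FZD2 fell with hypoxia by 0.35 (SE 0.09, adjusted p = 0.0425), with 1048 and 849 in the normoxia arrays and 808 and 676 in the hypoxia arrays of WT and KD. The receptor FZD5 (58.5 to 93.2) and the coreceptor PTK7 (304 to 434) did not pass in either term.

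R-spondins, the ligands that remove ZNRF3 and RNF43, were all 4 below the floor in every array. Their receptors LGR4, LGR5 and LGR6 reached it, at 344 to 420, 92.3 to 131 and 91.1 to 108, and 0 of the 3 passed in either term. Among secreted and membrane antagonists 6 of 16 reached the floor. FRZB, which binds Wnt proteins outside the cell, rose in the genotype term by 0.49 (SE 0.12, adjusted p = 0.0442), with 198 in WT normoxia, 314 in KD normoxia, 255 in WT hypoxia and 332 in KD hypoxia. That call was lost with the floor at the 75th percentile. WIF1, another secreted Wnt binder, read 41.9, 110, 56.7 and 53.9 in that order, and its other 2 probe sets stayed below the floor. KREMEN1, a receptor for DKK1, reached it in 1 array.

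ZNRF3 and RNF43 share their RING domain and protease-associated domain with a small group of ligases, of which 4 of 8 measured genes reached the floor. RNF130 rose with hypoxia by 0.74 (SE 0.10, adjusted p = 0.00216), with 364 in WT normoxia, 479 in KD normoxia, 662 in WT hypoxia and 762 in KD hypoxia. RNF13 read 983 to 1160 and RNF149 read 218 to 264, and neither passed in either term. ZNRF1 and ZNRF2 were looked for but had no probe set with their name as its only symbol.

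Dishevelled and the destruction complex had 16 of 23 measured genes above the floor, of which 1 rose with hypoxia and 0 passed for genotype. The kinase gene CSNK1G3 rose by 0.47 (SE 0.10, adjusted p = 0.018), with 338 and 375 in the normoxia arrays and 478 and 525 in the hypoxia arrays of WT and KD. The call was lost with the median over its 5 probe sets. CSNK1G2, of the same kinase family, read 313, 368, 473 and 265 (normoxia WT and KD, then hypoxia WT and KD) and did not pass. BTRC, which binds marked beta-catenin, reached the floor in 2 arrays and AXIN1 in 1.

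The partners of TCF factors in the nucleus had 7 of 11 measured genes above the floor. TLE1, a corepressor that holds TCF target genes off, rose in the genotype term by 0.62 (SE 0.09, adjusted p = 0.0074). It read 670 in WT normoxia, 1089 in KD normoxia, 799 in WT hypoxia and 1186 in KD hypoxia, and the second TLE1 probe set differed by 0.37 and 1.18. TLE3, its relative, read 43.6 and 43.8 in the WT arrays, below the floor, and 75.1 and 66.2 in the KD arrays. TLE4 read 110 to 144, and neither TLE3 nor TLE4 passed.

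Other Wnt target genes had 11 of 22 measured genes above the floor and did not go one way with genotype, where 2 rose and 1 fell. CCND1, which encodes cyclin D1, rose by 0.52 (SE 0.09, adjusted p = 0.0177), with 1296 in WT normoxia, 2089 in KD normoxia, 1523 in WT hypoxia and 1942 in KD hypoxia. JUN rose by 0.51 (SE 0.11, adjusted p = 0.0359), and read 2608 in KD normoxia against 1516 to 1816 in the other arrays. MYC, a driver of growth, fell by 0.38 (SE 0.09, adjusted p = 0.0418), with 994 and 1018 in the WT arrays and 747 and 793 in the KD arrays. ZNRF3, also a target of the pathway, had the sign of MYC in both pairs and the opposite sign to CCND1 and JUN. Its sign in the normoxia pair was fixed by the choice of ZNRF3, so nothing is read from that pair.

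With hypoxia 0 of these targets rose and 2 fell, BMP4 and BAMBI. BMP4, a ligand of the BMP pathway, fell by 0.83 (SE 0.12, adjusted p = 0.00254), with 422 and 431 in the normoxia arrays and 259 and 209 in the hypoxia arrays of WT and KD. BAMBI, a decoy receptor, read 62.1 and 106 in the normoxia arrays and 17.5 and 28.8 in the hypoxia arrays, both below the floor. It entered the test only through the normoxia arrays, where it is high, so no size or p is read from its call. ASCL2, a stem cell factor of the gut, read 52.8 in KD normoxia and lay below the floor elsewhere.

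Cadherins and catenins, the partners of beta-catenin at cell contacts, had 6 of 8 genes above the floor. JUP, the plakoglobin that resembles beta-catenin, fell with hypoxia by 0.33 (SE 0.07, adjusted p = 0.0173) and rose with genotype by 0.36 (SE 0.07, adjusted p = 0.0204). It read 2401 in WT normoxia, 3105 in KD normoxia, 1914 in WT hypoxia and 2452 in KD hypoxia. The genotype call was lost with the median over its 3 probe sets, the second of which differed by 0.12 and 0.08. CDH2, N-cadherin, rose with hypoxia by 0.50 (SE 0.12, adjusted p = 0.031), and its 1225 in WT normoxia was the low value against 2052 to 2396. CDH3, P-cadherin, read 60.9 in KD hypoxia and 109 to 159 elsewhere, and CTNND2 read 34.2 to 73.3, and neither passed.

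The planar polarity branch had 6 of 9 measured genes above the floor. DAAM1, a formin that acts below Dishevelled, rose with hypoxia by 0.43 (SE 0.11, adjusted p = 0.0416), with 2065 in WT normoxia, 1507 in KD normoxia, 2343 in WT hypoxia and 2411 in KD hypoxia. CELSR1, an atypical cadherin, read 182 to 250 and did not pass. PRICKLE2 reached the floor in KD normoxia alone, at 53.0.

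**Figure D4:**
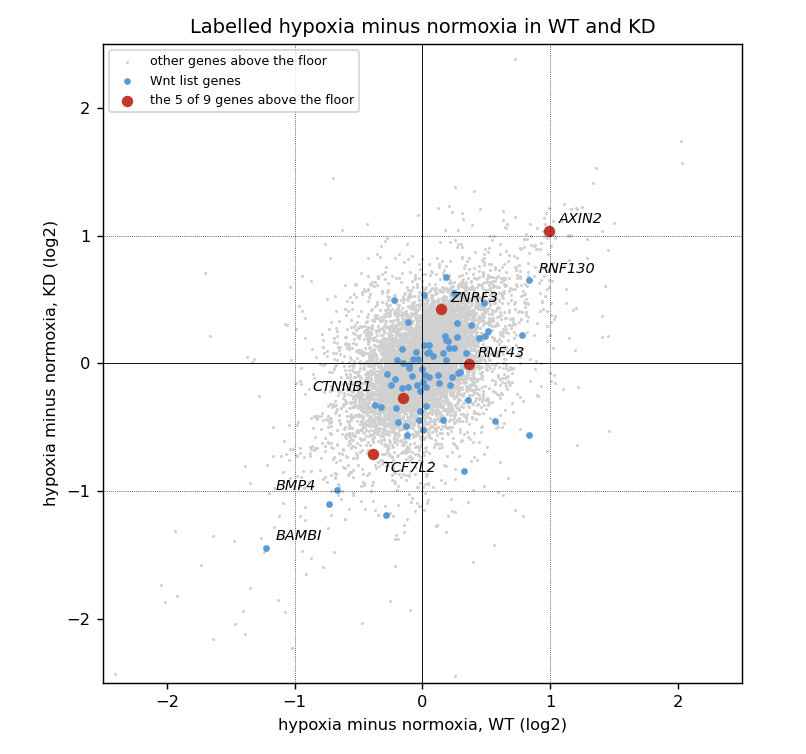
Log2 difference hypoxia minus normoxia in WT (x axis) against KD cells (y axis), with colours and dotted lines as in the plot of KD minus WT and 14 genes outside the axes. AXIN2, by its brightest probe set, lies near 2-fold in both, and BMP4 lies on the opposite side.

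**Figure D5:**
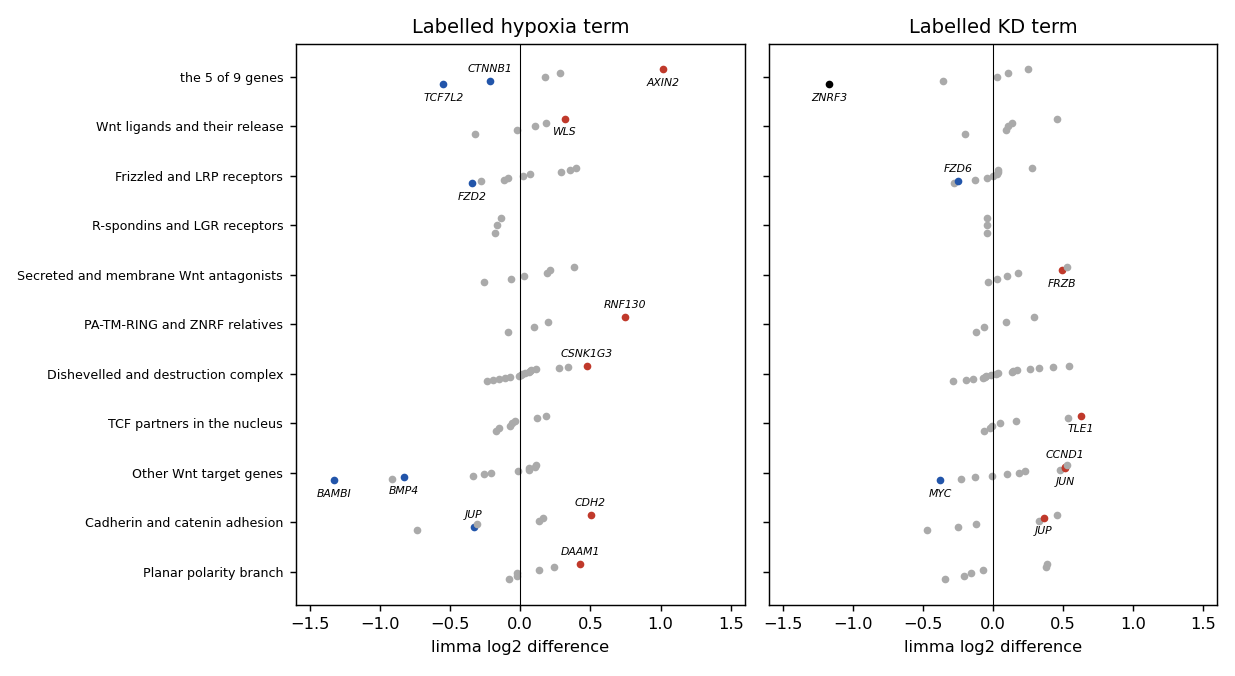
Limma log2 difference (x axis) for the hypoxia term (left) and the genotype term (right) of genes above the floor, by gene list (rows; vertical position within a row carries no value). Red genes rose and blue genes fell at an adjusted p under 0.05, grey genes did not pass, and ZNRF3 is black on the right because that contrast chose it. The 10 lists below the top row hold 5 genes that rose and 4 that fell with hypoxia.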

How the data were processed

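The authors deposited 1 linear intensity for each probe set and array. How these were corrected and scaled, and with which software, is not given in the sources used here. Trimmed means per array were 310.5 to 314.9, and 1065 to 1129 values per array were listed at 1. Differences were taken on log2(intensity + 16). Gene symbols came from GEO's platform annotation, in which 29254 probe sets have 1 symbol, and the 9 genes were matched by gene ID in RefSeq. A gene was read from its probe set with the highest mean log2 value and kept if any array reached the median of all values (46.33).

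An additive limma model (genotype and oxygen, all 4 arrays, intensity trend, two-sided, Benjamini-Hochberg over 9834 genes, 0.05) was fitted with limma 3.58.1 in R 4.3.3. Other steps used Python 3.11.15. It has 1 residual and 8.11 prior degrees of freedom, so its p-values do not measure the spread between cultures. The script was tested on simulated data.

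The genes and lists were chosen with earlier results of these data known. Named are the 9 genes, HIF1A, from each Wnt list the 3 genes with the largest difference and any that limma called, and the 5 genes nearest to ZNRF3. Genome coordinates, probe sequences and promoters were not used here, and the planned motif search was not run. Alternatives were 3 scalings, 2 pseudocounts, the median over probe sets, 2 floors, another fold threshold, no trend, and a fit on all probe sets.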

Additional observations from a re-analysis of the deposited data

Results flagged for a closer look

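Of 51 named genes, 38 reached the floor in all 4 arrays, and 18 of these had opposite signs of a labelled difference in the 2 oxygen states or the 2 genotypes. The same share over all genes was not determined, and many named genes were picked for large differences, so nothing is read from this count. Some of the signs rest on a very small value, such as -0.007 for RNF43 in KD cells and 0.0063 for JUN in WT cells. None of the 18 reached 0.5 on the log2 scale in both directions. With 1 array a group, these differences were not tested. The values here are the response to hypoxia in WT minus that in KD cells. RNF43 had both kinds of opposite sign, with 0.37, and so did LGR5 (0.61), CSNK1G2 (1.02) and TLE4 (0.36).

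The response to hypoxia alone had opposite signs in WT and KD cells for WNT3 (-0.27), RNF13 (-0.22), CCND1 (0.34), JUN (0.52), CELSR1 (0.16) and CCDC32 (-0.82). KD minus WT alone had opposite signs in normoxia and hypoxia for WLS (0.24), FZD5 (-0.31), PTK7 (0.27), LGR4 (-0.20), LGR6 (-0.091), BMP4 (0.32), CDH3 (0.90) and DAAM1 (-0.49). For CSNK1G2, the other probe set above the floor in all arrays was at 0.05 and 0.10 for KD minus WT, against 0.22 and -0.80 in the brightest. The second CCND1 probe set kept the signs of the first, with a response of 0.35 in WT and -0.21 in KD cells.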

How the results depend on the processing

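Each group has 1 array, so no alternative shows the spread between cultures. No paired analysis was possible because a replicate number with 1 array in each group adds no block to the additive model, which already compares arrays within genotype and within oxygen. ZNRF3 kept its sign in all 5 of its differences under all 6 alternatives. Not all of these could have turned a sign. ZNRF3 has 1 probe set, so the median over probe sets changes nothing. A pseudocount cannot turn the sign of a difference of 2 arrays, which leaves the 3 scalings for those. The KD minus WT difference of ZNRF3 moved beyond its spread of 0.199 with a pseudocount of 64, to -0.945 in normoxia and -0.787 in hypoxia. The count of the genes past 2-fold for KD minus WT in normoxia, 1, became 0 with that pseudocount and with the floor at the 75th percentile, which leaves ZNRF3 out, and 2 without a floor (ZNRF3 and TCF7). In hypoxia it became 0 after quantile normalization, after cyclic loess, with a pseudocount of 64 and with the higher floor. For hypoxia minus normoxia in WT cells the count of 0 became 1 with a pseudocount of 1 (AXIN2), without a floor (TCF7) and with a threshold of 1.5-fold (AXIN2). In KD cells the count of 1 became 0 with a pseudocount of 64, with the median over probe sets and with the higher floor, and 2 at 1.5-fold (AXIN2 and TCF7L2). Of the Wnt list genes, limma called 9 for hypoxia and 7 for genotype. Both became 0 without the floor and without the trend, and the 7 became 12 after quantile normalization. Values below the floor limit 4 of the 9 genes, and the higher floor leaves out ZNRF3 as well. Where a cause is not named, the cause was not tested.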
